A study of Mus musculus with 26 samples.

Results

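The PI3K-AKT-mTOR pathway was followed at the transcript level in leukaemic LSK cells, marrow cells without lineage markers that carry Sca-1 and c-Kit and include blood stem cells and early progenitors. It was represented by 29 genes, chosen by name and not by their values, out of 24091 genes in the table of read counts. All 29 were in the table, and all 29 passed the filter on low counts, which left 13379 genes for testing. The cells came from SCLtTA/BCR-ABL mice on a C57BL/6 background, in which the leukaemia oncogene BCR-ABL is switched on through the Scl stem cell enhancer, so every group, controls included, carried both transgenes. The groups differed in Spred1, whose product inhibits RAS-ERK signalling. Global KO (6 libraries) lacked Spred1 in all tissues, and Spred1 wt (5 libraries) was its control. In HSC KO (5 libraries) the gene was deleted with Mx1-cre, an interferon-inducible recombinase that also acts in other tissues. HSC wt (5 libraries) was treated alike, and mice of both groups received 7 doses of 250 µg poly(I:C), 1 every 2 days. EC KO (5 libraries) carried the deletion in endothelial cells, whose Cre driver is not given in the sources used here. Mice labelled EC wt were not analysed here, and EC KO was set against Spred1 wt in their place. Whether mice outside the HSC groups received poly(I:C) is not stated, and the labels give no age. The labels do not say that libraries of a group came from separate mice, so p-values measure the spread between these libraries, which may be technical.

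Class I PI3-kinases turn growth factor, cytokine and chemokine signals into the membrane lipid PIP3, which recruits PDK1 and AKT to the plasma membrane. AKT phosphorylates GSK3, which it inhibits, FOXO transcription factors, which then leave the nucleus, and the TSC complex, which otherwise keeps the small GTPase RHEB inactive. RHEB activates mTORC1, the complex of mTOR with RAPTOR that promotes translation through S6 kinases and 4E-BP proteins, while mTORC2, with RICTOR in place of RAPTOR, phosphorylates AKT. BCR-ABL is known to engage the pathway through adaptor proteins. In haematopoietic stem cells FOXO proteins and a low activity of AKT and mTORC1 are known for keeping cells quiescent. Most of this signalling runs through phosphorylation and location of proteins, which read counts do not measure.

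Libraries held between 14816071 and 26714325 counts. Levels are given as CPM, which scales counts to library sizes adjusted by TMM factors, and levels of different genes are compared as CPM per kilobase of transcript. Spred1 fell in global KO by 1.81 on the log2 scale (edgeR adjusted p = 2.86e-08), in HSC KO by 1.55 (edgeR adjusted p = 4.14e-06) and in EC KO by 0.70 (edgeR adjusted p = 0.00527). Its reads did not vanish in the global deletion, at 32.6 ± 7.35 CPM in global KO against 114 ± 20.7 in Spred1 wt (mean ± SD). All 10 markers of stem and progenitor cells on the list used were detected in each group, with sums of 1905 to 3256 CPM per library. The 9 mast cell and basophil markers were all detected too and summed to 1402 to 15146 CPM, whereas 4 T cell markers summed to at most 5.89 CPM. Of all libraries, global KO 1 stood apart in base composition. Its counts rose by 0.217 on the log2 scale per 10 points of transcript GC percent, against at most 0.0853 in any other library. The X-inactivation transcript Xist was above 100 CPM in 2 EC KO, 3 HSC KO and 2 HSC wt libraries and in none of the global KO and Spred1 wt libraries.

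The pathway was expressed at every step, with leukocyte forms of PI3-kinase and Akt1 among the most abundant transcripts. Akt1 had the highest level of the members, at 118 ± 10.3 CPM per kb (mean ± SD, n = 26 libraries), followed by Eif4ebp2 at 72.8 ± 7.38 and Inpp5d at 69.8 ± 11.9. Eif4ebp2 codes for a 4E-BP repressor of cap-dependent translation, and Inpp5d for SHIP1, the blood cell phosphatase that converts PIP3 to PI(3,4)P2. The SD of Inpp5d was larger than its gap to Eif4ebp2 above it and to Gsk3a, at 59.3 ± 4.42, below it. The lowest levels belonged to Irs2 at 4.08 ± 1.09, Foxo1 at 3.90 ± 0.629 and Sgk1 at 3.75 ± 1.19 CPM per kb, neighbours that did not differ beyond their spread. In single libraries the members had between 167 counts, for Sgk1, and 9192 counts, for Inpp5d.

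**Figure D1:**
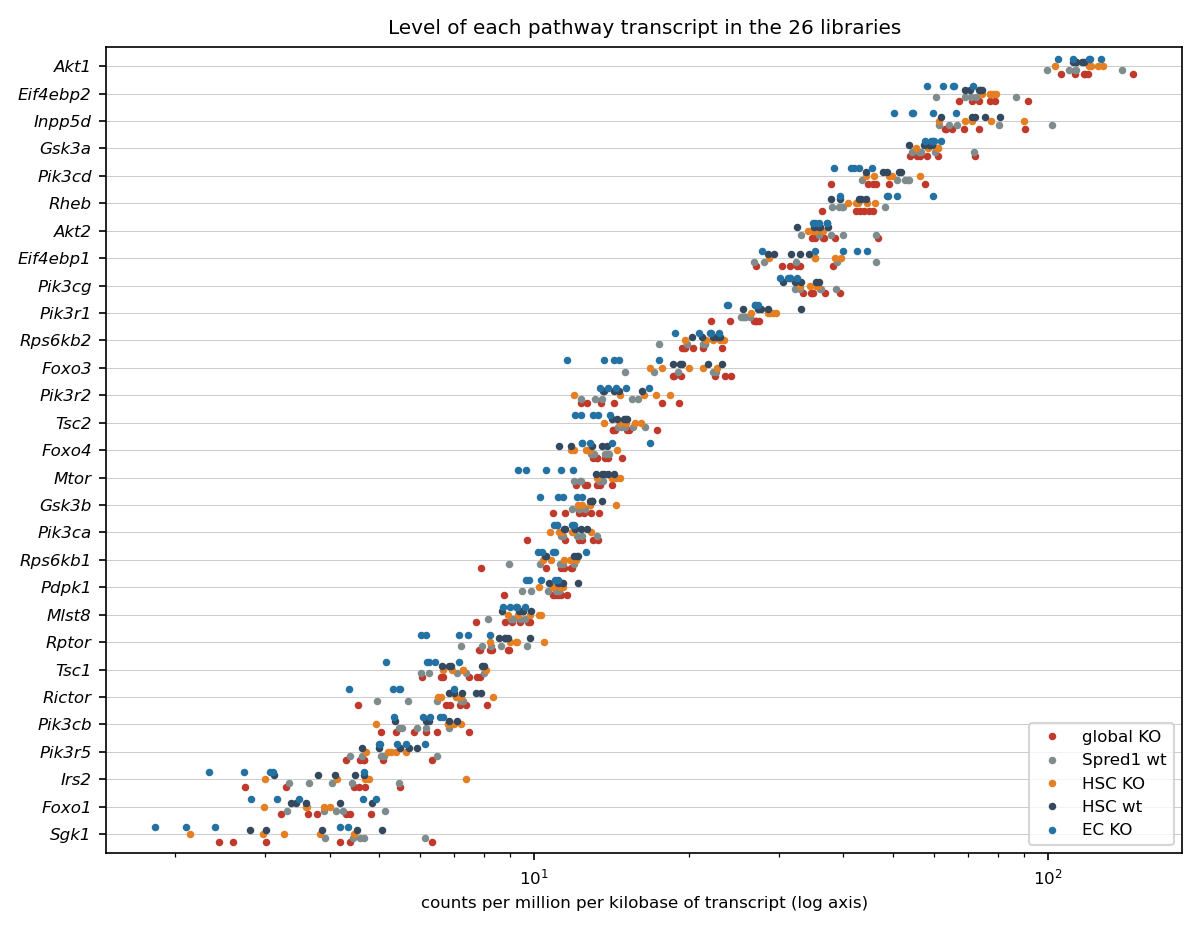
Level of each of the 29 transcripts in all 26 libraries, as CPM per kilobase on a log axis, with 1 point per library coloured by group and genes ordered by mean level. The groups overlap for most genes, while points of EC KO lie to the left for Foxo3, Mtor and Tsc2 and to the right for Rheb.

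Among the catalytic subunits, Pik3cd and Pik3cg, which code for the leukocyte-enriched p110δ and p110γ, made up most of the transcripts. Per length, Pik3cd held 47.5% ± 2.26 of the catalytic transcripts (mean ± SD over 26 libraries) and Pik3cg 34.3% ± 1.83. The widely expressed Pik3ca, for p110α, held 11.9% ± 1.01 and Pik3cb, for p110β, 6.25% ± 0.687. Pik3r1, for the regulatory subunit p85α, stood at 26.8 ± 2.183 CPM per kb, above Pik3r2, for p85β, at 14.8 ± 1.93. Pik3r5, for the p101 partner of p110γ, stood at 5.21 ± 0.588 CPM per kb.

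Further down the pathway 1 paralogue mostly led. Akt1 stood above Akt2, which was at 36.7 ± 3.30 CPM per kb. Gsk3a held 82.7% ± 1.65 of the GSK3 transcripts, Eif4ebp2 68.1% ± 3.74 of those of the listed 4E-BPs and Rps6kb2 65.8% ± 1.97 of those of the S6 kinases. Foxo3 held 52.3% ± 4.38 of the FOXO transcripts, Foxo4 36.9% ± 3.87 and Foxo1 10.8% ± 1.19. Tsc2, for the GTPase-activating subunit of the TSC complex, held 67.9% ± 2.14 of the TSC transcripts and its partner Tsc1 the rest. Pdpk1, for the AKT-activating kinase PDK1, stood at 10.8 ± 0.759 CPM per kb. Of the mTOR subunits, the kinase Mtor stood at 12.9 ± 1.43, Mlst8, shared by both complexes, at 9.27 ± 0.586, Rptor at 8.37 ± 1.02 and Rictor at 6.63 ± 1.07 CPM per kb. Rheb stood at 43.6 ± 4.96 CPM per kb, above Tsc1 and Tsc2. Such shares compare read densities over the transcript lengths in the table and depend on these lengths.

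The median biological coefficient of variation of the members was 0.0983, against 0.134 over all tested genes. The members are also more abundant, with a median mean log2 CPM of 6.55 against 4.91, and the coefficient falls with abundance. Mlst8 varied least, with an SD of 6.32% of its mean over 26 libraries. Sgk1, an AKT-related kinase that responds to hormones and stress, varied most, at 31.6%, followed by Irs2, a docking protein of insulin and cytokine receptors, at 26.7%.

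**Figure D2:**
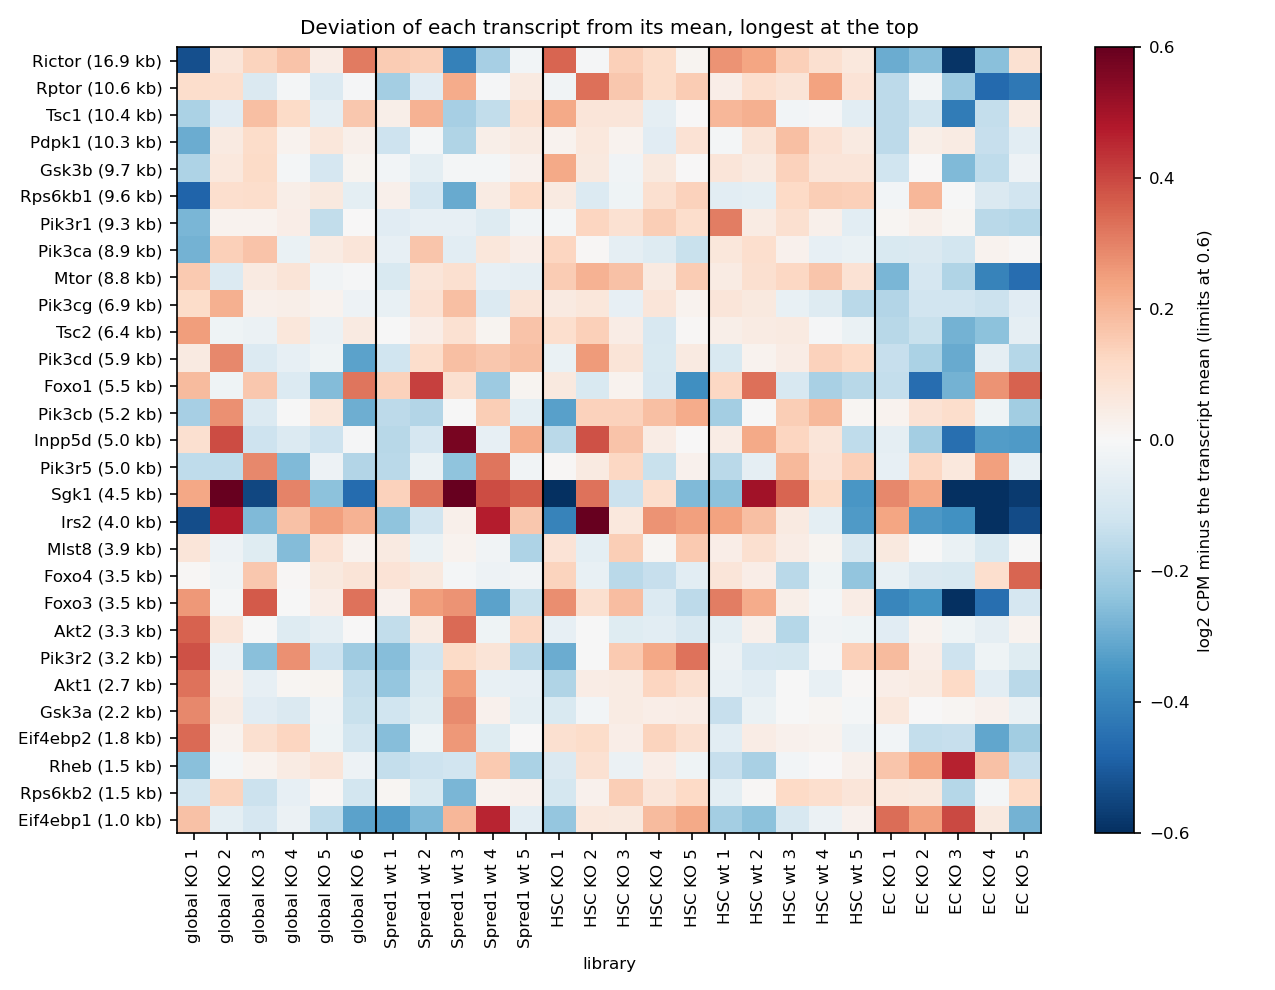
Log2 CPM of each gene minus its mean over the 26 libraries, with genes ordered from the longest transcript at the top (length in kilobases beside the symbol) and libraries grouped by vertical lines; colours are limited at 0.6. The long transcripts are mostly blue in EC KO, Sgk1 and Irs2 have the strongest colours, and global KO 1 differs from the other global KO libraries among long and short transcripts.

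Global KO against Spred1 wt asks which transcripts of leukaemic LSK cells differ when Spred1 is missing in all tissues. None of the 29 pathway genes passed an adjusted p of 0.05 in edgeR's quasi-likelihood test, where 0.0747% of all tested genes did, and none had an unadjusted p under 0.05. DESeq2 and limma voom also called 0 members, here and in the 3 further comparisons in which edgeR called 0. Of all tested genes, 0.112% lay with no overlap above the controls and 0.209% below, and none of the members did either. The median log2 difference of the members was 0.01, with 18 higher and 11 lower, against 0.01 over all tested genes. Bulk RNA cannot tell fewer cells of a type from less RNA per cell, here and below.

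The 3 members of smallest p in this comparison were Pik3cd, Sgk1 and Foxo3. Pik3cd stood in global KO at 223 at the lowest, 272 at the median and 341 CPM at the highest, and in Spred1 wt at 257, 299.8, 316, 312 and 316 CPM. The groups overlapped, with 1 global KO library above and 1 below all controls, and the difference was -0.12 (SE 0.0824, edgeR adjusted p = 0.943). Sgk1 stood in global KO at 11.1 at the lowest, 16.3 at the median and 28.8 CPM at the highest, and in Spred1 wt at 17.8, 20.2, 27.8, 21.2 and 20.8 CPM. Low and high libraries occurred in global KO, with a difference of -0.31 (SE 0.253, edgeR adjusted p = 0.971) and a 95% interval of -0.84 to 0.21. Foxo3 stood in global KO at 64.6 at the lowest, 72.6 at the median and 84.1 CPM at the highest, and in Spred1 wt at 66.3, 77.6, 78.4, 52.1 and 59.5 CPM. Its groups overlapped over most of their range, at 0.14 (SE 0.112, edgeR adjusted p = 0.971). Without global KO 1 the differences were -0.14 for Pik3cd, -0.35 for Sgk1 and 0.11 for Foxo3, and the count of members called was again 0. Single other libraries moved the values further. Pik3cd ran from -0.19 with global KO 2 left out to -0.06 with global KO 6 left out, and was -0.18 without Spred1 wt 1. Sgk1 ran from -0.52 without global KO 2 to -0.21 without Spred1 wt 3, and Foxo3 was at 0.05 without Spred1 wt 4.

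The intervals of single genes show what size of difference could have been missed for each, and give no joint bound for the pathway. For Akt1 the 95% interval of the log2 difference ran from -0.10 to 0.23, for Mtor from -0.09 to 0.16, for Tsc2 from -0.13 to 0.10 and for Pik3cg from -0.09 to 0.13. It was wider for Rictor, from -0.15 to 0.36, for Eif4ebp1, from -0.37 to 0.16, and for the variable Irs2, from -0.41 to 0.43. Of 47 tested genes among 48 other genes of the pathway on the list used (further subunits, phosphatases, adaptors, and lysosomal and nutrient sensors of mTORC1), 0 passed. The smallest p values belonged to Sesn2, for a stress-induced inhibitor of mTORC1, at -0.47 (SE 0.196, edgeR adjusted p = 0.822), and Inppl1, for the lipid phosphatase SHIP2, at -0.31 (SE 0.152, edgeR adjusted p = 0.903). Of 20 genes that FOXO factors are known to induce, 0 passed, with the smallest p for the DNA damage gene Gadd45a at -0.47 (SE 0.192, edgeR adjusted p = 0.805) and for Gabarapl1, an autophagy gene, at 0.16 (SE 0.0761, edgeR adjusted p = 0.899).

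HSC KO against HSC wt asks the same for deletion through Mx1-cre. No member passed, where 0.0224% of all tested genes did, and no member had an unadjusted p under 0.05. Of all tested genes 0.441% lay entirely above and 0.209% entirely below HSC wt, and no member did. The median log2 difference was 0.01 for the members, with 18 higher and 11 lower, and 0.02 for all tested genes.

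The smallest p values belonged to both 4E-BP genes and Irs2. In HSC KO Eif4ebp1 measured 28.1, 34.5, 34.4, 37.6 and 38.7 CPM, and the HSC wt libraries measured 28.7, 27.9, 30.9, 32.2 and 33.6 CPM. All HSC KO libraries but the first were above the HSC wt libraries, and the difference was 0.18 (SE 0.135, edgeR adjusted p = 0.999). In HSC KO Eif4ebp2 measured 138, 139, 133, 141 and 138 CPM, and the HSC wt libraries measured 123, 133, 131, 131 and 126 CPM. The lowest HSC KO value lay just under the highest HSC wt value, and the difference was 0.10 (SE 0.0786, edgeR adjusted p = 0.999). In HSC KO Irs2 measured 12.01, 29.6, 16.6, 19.1 and 18.8 CPM, and the HSC wt libraries measured 18.7, 17.98, 16.4, 15.2 and 12.5 CPM. HSC KO held both the highest and the lowest of these Irs2 values, with a difference of 0.25 (SE 0.212, edgeR adjusted p = 0.999). It was 0.03 without HSC KO 2, 0.16 without HSC wt 5 and 0.38 without HSC KO 1.

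Other pathway genes did not pass in HSC KO either (0 of 47), with the smallest p for Inppl1 at -0.41 (SE 0.160, edgeR adjusted p = 0.999) and Lamtor4, part of the Ragulator complex that anchors mTORC1 at lysosomes, at 0.20 (SE 0.101, edgeR adjusted p = 0.999). Of the FOXO-induced genes 0 of 20 passed, with Il7r, for the interleukin-7 receptor, at 0.72 (SE 0.393, edgeR adjusted p = 0.999). Whether the effects of global and of Mx1-cre deletion differ was tested as the difference of the log2 differences. No member passed, where 0.0149% of all tested genes did, and none had an unadjusted p under 0.05. Eif4ebp1 had the smallest p, with an effect lower in global KO by 0.28, at -0.28 (SE 0.186, edgeR adjusted p = 1). The difference of effects was 0.19 (SE 0.162, edgeR adjusted p = 1) for Foxo3 and 0.10 (SE 0.0923, edgeR adjusted p = 1) for Pdpk1. Without Spred1 wt 4 the values were -0.15 for Eif4ebp1 and 0.11 for Foxo3, and without global KO 1 it was 0.15 for Pdpk1. Among the other lists the smallest p values were those of Lamtor2 at -0.24 (SE 0.119, edgeR adjusted p = 1) and Rragc, for a Rag GTPase, at -0.17 (SE 0.104, edgeR adjusted p = 1), and of Il7r at -1.41 (SE 0.542, edgeR adjusted p = 1) and Gabarapl1 at 0.25 (SE 0.110, edgeR adjusted p = 1).

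**Figure D3:**
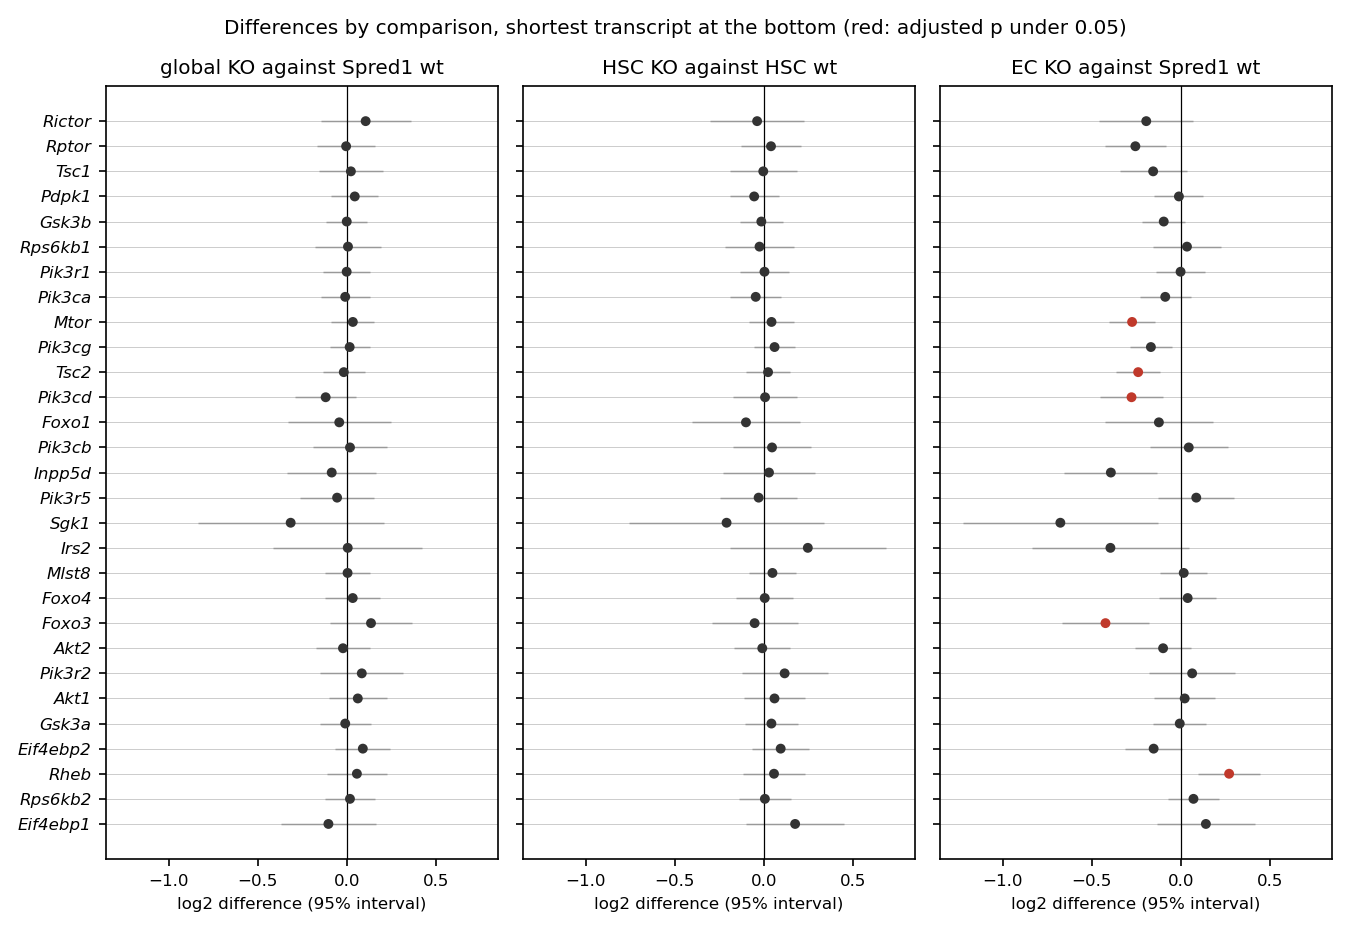
Log2 difference of each pathway gene with its 95% interval in 3 panels, for global KO and EC KO (both against Spred1 wt) and for HSC KO (against HSC wt), with the shortest transcript at the bottom and points in red where the edgeR adjusted p is under 0.05. No point is red in global KO and HSC KO, and 5 are red in EC KO, of which Rheb alone lies above 0.

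HSC wt and Spred1 wt are both Spred1-intact. They differ by Xist, present in 2 HSC wt libraries and no Spred1 wt library, and by poly(I:C) if Spred1 wt mice received none. They also differ by Mx1-cre if HSC wt mice carried it. The labels state neither, and these differences cannot be told apart. No member passed, where 0.0299% of all tested genes did. Of all tested genes 0.800% lay entirely above Spred1 wt and 1.10% entirely below, and 1 member, Gsk3b, for a GSK3 kinase that AKT inhibits, lay entirely above. In HSC wt Gsk3b measured 126, 124, 132, 126 and 126 CPM, and the Spred1 wt libraries measured 118, 115, 119, 119 and 122 CPM. The gap between the groups was small, and the difference was 0.10 (SE 0.0586, edgeR adjusted p = 0.827).

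Pik3r1, Pdpk1 and Mtor were the members of smallest p between these controls. In HSC wt Pik3r1 measured 308, 258, 266, 254 and 238 CPM, and the Spred1 wt libraries measured 238, 241, 241, 236 and 246 CPM, with a difference of 0.14 (SE 0.0667, edgeR adjusted p = 0.767). It was the 1 member of 29 with an unadjusted p under 0.05 here, where 850 of 13379 tested genes had such a p. Without HSC wt 1 the difference of Pik3r1 was 0.09. In HSC wt Pdpk1 measured 110.0, 117, 126, 118 and 115 CPM, and the Spred1 wt libraries measured 102, 109.7, 97.8, 114 and 115 CPM, at 0.12 (SE 0.0666, edgeR adjusted p = 0.805). In HSC wt Mtor measured 116, 119.7, 122, 126 and 119 CPM, and the Spred1 wt libraries measured 105, 117, 119, 108 and 108 CPM, at 0.11 (SE 0.0615, edgeR adjusted p = 0.812). For each of these genes the groups overlapped. Of the other pathway genes 0 of 47 passed, with the smallest p for Telo2, for a chaperone of mTOR, at 0.20 (SE 0.0727, edgeR adjusted p = 0.601) and Sesn2 at -0.48 (SE 0.205, edgeR adjusted p = 0.7). Of the FOXO-induced genes 0 of 20 passed, with the smallest p for Cat, for catalase, at -0.18 (SE 0.0632, edgeR adjusted p = 0.601) and Il7r at -0.94 (SE 0.393, edgeR adjusted p = 0.692).

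In LSK cells of EC KO mice 5 of 29 members passed against Spred1 wt, where 7.96% of all tested genes did. Mtor, Tsc2, Foxo3 and Pik3cd fell, and Rheb rose. These transcripts code, in this order, for the kinase of both mTOR complexes, the RHEB-inactivating subunit of TSC, a FOXO factor, p110δ and the activator of mTORC1. Protein levels and activities were not measured. With the offset for transcript length described below Foxo3 alone passed, and with the length slope as a covariate Foxo3 did not. Of the members 10 were higher and 19 lower, with a median log2 difference of -0.10 against 0.02 over all tested genes. Of all tested genes 2.29% lay entirely above the controls and 3.27% entirely below, and of the members 0 lay above and 2, Mtor and Tsc2, below.

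Mtor (mm10, chromosome 4, 148448582 to 148557685) measured 92.5, 104, 98.8, 84.6 and 81.5 CPM in EC KO, and the Spred1 wt libraries measured 105, 117, 119, 108 and 108 CPM. All EC KO libraries lay below all controls, and Mtor dropped by 0.27 in log2 units (SE 0.0616, edgeR adjusted p = 0.00746), which is 17.2% less transcript. Tsc2 (chromosome 17, 24595816 to 24632627) measured 83.2, 85.2, 76.6, 78.8 and 89.9 CPM in EC KO, and the Spred1 wt libraries measured 93.2, 95.9, 99.5, 94.4 and 105 CPM. Its groups did not overlap either, and Tsc2 dropped by 0.24 in log2 units (SE 0.0593, edgeR adjusted p = 0.0141), or 15.3%.

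Foxo3 (chromosome 10, 42185786 to 42276742), which codes for a FOXO factor needed for the maintenance of haematopoietic stem cells in mice, had the largest called difference of the members. In EC KO it measured 49.7, 50.9, 40.3, 47.6 and 60.8 CPM, and the Spred1 wt libraries measured 66.3, 77.6, 78.4, 52.1 and 59.5 CPM. Of the EC KO libraries 4 lay below all controls, while the fifth was above 2 of the controls, and Foxo3 dropped by 0.42 in log2 units (SE 0.118, edgeR adjusted p = 0.0275), or 25.4%. Stem and progenitor markers summed to 2319 CPM at the median in EC KO and 2822 in Spred1 wt, in overlapping ranges, but did not move as 1 block. Kit was at 607, 587, 344, 419 and 622 CPM in EC KO, below all Spred1 wt libraries (760 to 1236). Flt3 was at 602, 655 and 630 CPM in EC KO 3, 4 and 5, above all Spred1 wt libraries (235 to 508). In EC KO 1 and 2 Flt3 was at 438 and 304 CPM. With the mean log2 level of the listed markers as a covariate, chosen after the data were seen, Foxo3 was at -0.33 (edgeR adjusted p = 0.0055). This mean mixes markers that moved in opposite ways. Pik3cd (chromosome 4, 149649168 to 149701629) stood at 253, 245, 226, 268 and 247 CPM in EC KO and at the Spred1 wt values given above. The lowest control library was below 1 EC KO library, and Pik3cd dropped by 0.28 in log2 units (SE 0.0863, edgeR adjusted p = 0.0479). Rheb (chromosome 5, 24802823 to 24842361) measured 73.7, 77.2, 90.3, 74.1 and 59.7 CPM in EC KO, and the Spred1 wt libraries measured 59.4, 60.1, 60.5, 73.1 and 57.5 CPM. Of the EC KO libraries 4 lay above all controls, and Rheb rose by 0.27 in log2 units (SE 0.0849, edgeR adjusted p = 0.0475), or 20.8%.

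**Figure D4:**
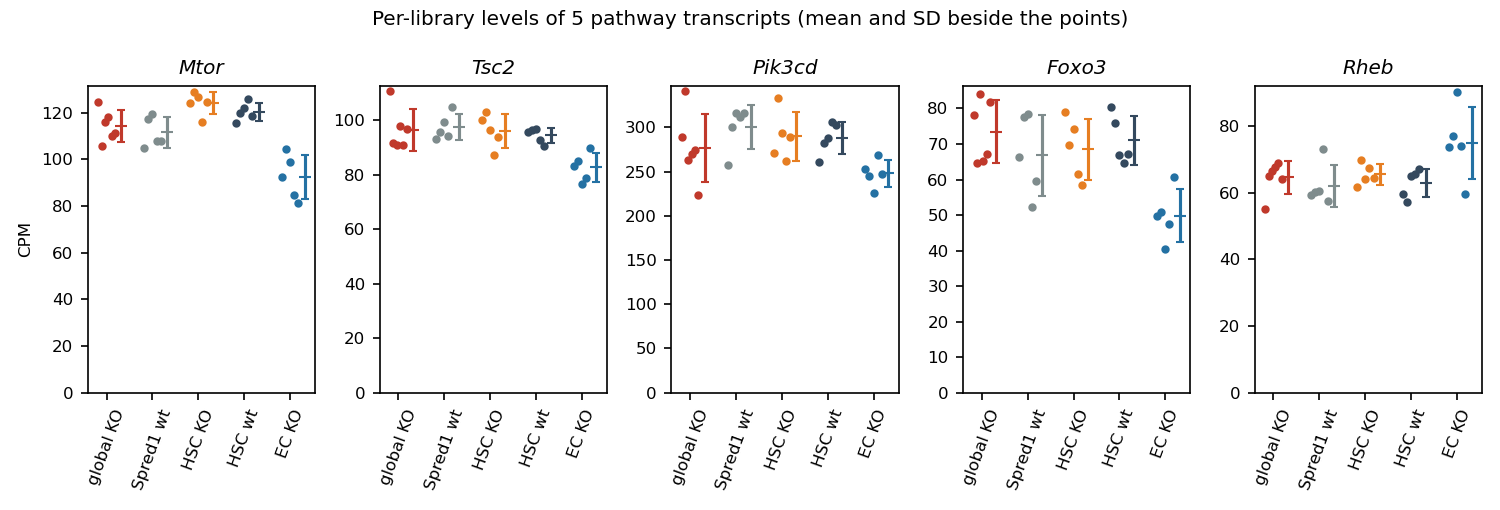
CPM of Mtor, Tsc2, Pik3cd, Foxo3 and Rheb in every library, with 1 point per library and the mean and SD of each group beside its points; axes start at 0. EC KO is the lowest group for the first 4 genes and the highest for Rheb, with Mtor at 81.5 to 104 CPM in EC KO and 105 to 119 in Spred1 wt.

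The members just short of the threshold pointed mostly down. Inpp5d differed by -0.39 (SE 0.127, edgeR adjusted p = 0.055), Rptor, for the mTORC1 subunit RAPTOR, by -0.25 (SE 0.0828, edgeR adjusted p = 0.0561) and Pik3cg by -0.17 (SE 0.0567, edgeR adjusted p = 0.0666). Sgk1 had the largest difference of all members, -0.68 (SE 0.266, edgeR adjusted p = 0.112), with a 95% interval from -1.23 to -0.13, and stood at 19.7, 19.004, 8.32, 9.54 and 10.9 CPM in EC KO. The first 2 EC KO libraries were within the range of the controls for Sgk1 and the last 3 far below it. Unadjusted p values were under 0.05 for 9 of 29 members in all, and for 3360 of 13379 tested genes. Neither AKT gene passed, with Akt1 at 0.02 (95% interval -0.15 to 0.19) and Akt2 at -0.10 (-0.26 to 0.06), nor did Pdpk1, at -0.01 (-0.15 to 0.13). Of the mTORC1 outputs, the S6 kinase and 4E-BP genes, 0 of 4 passed.

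Of the other genes of the pathway, 3 of 47 passed in EC KO, and of 20 FOXO-induced genes 1, shares near or below the 7.96% of all tested genes. Inppl1 fell with no overlap, from 15.6, 16.3, 17.5, 14.8 and 20.4 CPM in Spred1 wt to 11.6, 11.5, 5.54, 10.8 and 12.5 CPM in EC KO, a log2 difference of -0.70 (SE 0.160, edgeR adjusted p = 0.00809). Rraga, for a Rag GTPase that brings mTORC1 to lysosomes, rose, at 0.28 (SE 0.0662, edgeR adjusted p = 0.0102), as did Rps6, for the ribosomal protein that S6 kinases phosphorylate, at 0.27 (SE 0.0739, edgeR adjusted p = 0.0237). Counts of Rps6 are uncertain, because ribosomal protein genes have many near-identical copies. The calls of Inppl1, Rraga and Rps6, and of Cat below, were not checked with the length offset that is used on the members further on. The FOXO-induced gene was Cat, for catalase, which fell, at -0.21 (SE 0.0632, edgeR adjusted p = 0.044). Of the 20, 15 were lower, against 6223 of 13379 tested genes, with a median log2 difference of -0.09. This lean was not particular to EC KO. In HSC wt against Spred1 wt, which shares the Spred1 wt libraries, 14 of the 20 were lower, with a median of -0.18, against 6966 of 13379 tested genes. In HSC KO against HSC wt, which does not, 14 were lower, with a median of -0.07, against 5773 of 13379. In global KO against Spred1 wt, again with the shared control, 10 were lower, with a median of 0.01, against 6083 of 13379.

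The promoters of the 5 members that passed in EC KO are shown because these genes moved in 1 comparison, some down and 1 up. RefSeq promoter windows (build GRCm38.p6, the same assembly as mm10) were found for 26 of the 29 members; Foxo4, Rps6kb2 and Eif4ebp1 had none in the table used. Printed are the 150 bases before the RefSeq start nearest to the listed gene start, 5′ to 3′ on the strand of the gene. For Pik3cd this RefSeq start lies inside the listed gene, whose minus-strand span begins at 149701629. Its window is therefore an internal one, and the bases before the listed start were not examined. Capitals mark every match to the GC box GGGCGG, the CCAAT box CCAAT, the E-box CACGTG and the ETS motif CCGGAAG on either strand.
Mtor (chr4:148448432-148448581, plus strand): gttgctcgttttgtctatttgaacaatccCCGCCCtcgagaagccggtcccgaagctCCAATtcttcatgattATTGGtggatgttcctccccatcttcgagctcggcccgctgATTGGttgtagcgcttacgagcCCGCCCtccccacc
Tsc2 (chr17:24632628-24632777, minus strand): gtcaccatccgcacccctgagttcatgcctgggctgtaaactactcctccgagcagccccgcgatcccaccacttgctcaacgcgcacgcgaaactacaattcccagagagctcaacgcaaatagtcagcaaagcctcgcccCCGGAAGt
Foxo3 (chr10:42276696-42276845, minus strand): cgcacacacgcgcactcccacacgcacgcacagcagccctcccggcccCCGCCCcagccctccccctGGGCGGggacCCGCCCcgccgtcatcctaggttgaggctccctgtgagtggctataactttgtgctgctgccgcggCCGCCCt
Pik3cd (chr4:149698709-149698858, minus strand): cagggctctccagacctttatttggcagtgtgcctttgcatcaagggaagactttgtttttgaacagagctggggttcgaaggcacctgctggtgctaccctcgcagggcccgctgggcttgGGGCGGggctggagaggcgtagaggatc
Rheb (chr5:24842362-24842511, minus strand): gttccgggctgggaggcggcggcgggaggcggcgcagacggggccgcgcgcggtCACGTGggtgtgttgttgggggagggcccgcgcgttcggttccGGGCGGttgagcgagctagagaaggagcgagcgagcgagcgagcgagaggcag
The Mtor window held 3 CCAAT boxes and 2 GC boxes, the Foxo3 window 4 GC boxes, the Rheb window an E-box and a GC box, the Pik3cd window 1 GC box, and the Tsc2 window 1 ETS motif. No single motif was shared by all 5 windows, and the rising Rheb shared the GC box with the falling Mtor, Foxo3 and, in its internal window, Pik3cd.

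In windows of 300 bases around the start, a GC box was found in 16 of 26 members (61.5%) and in 47.2% of 17472 mouse promoters. The ETS motif was in 5 of 26 members against 11.97% of all promoters, the CCAAT box in 9 of 26 against 38.9%, and the E-box in 2 of 26 against 8.20%. The FOXO motif TGTTTAC was in 0 of 26 members against 3.02%, and the TATA motif TATAAA in 1 of 26 against 12.8%. The median number of CpG pairs per window was 20.5 in the members and 14 in all promoters. These matches describe letters in a window and show no binding.

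Transcript length moved with the EC KO differences across the whole table. In EC KO the slope of log2 deviations on log2 transcript length lay between -0.0901 and -0.0142 per library, whereas it lay between -0.00317 and 0.0437 in Spred1 wt and reached -0.0301 in global KO, its lowest value outside EC KO. Among all tested genes of the longest of 4 length classes of equal size, 332 fell and 35 rose in EC KO, with a median log2 difference of -0.09. In the shortest class 51 fell and 242 rose, with a median of 0.13. The members are long genes, with 14 of 29 in the longest class and 4 in the shortest. Of the 14 long members 12 were lower in EC KO, with a median of -0.14, and of the 4 short ones, Rheb among them, 3 were higher, with a median of 0.11. Mtor, Tsc2 and Pik3cd are in the longest class, and Foxo3, with 3.47 kb, is in the third, where all tested genes had a median of 0.0049 and the 8 members -0.25. No member lay near this median. Sgk1, Foxo3, Irs2 and Inpp5d were at -0.68 to -0.39, and Akt2, Mlst8, Foxo4 and Pik3r5 at -0.10 to 0.09.

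With an offset that removes the length trend of each library, 1 of 29 members passed in EC KO, where 5.67% of all tested genes did. It was Foxo3, at -0.38 (edgeR adjusted p = 0.0414). The differences became -0.11 for Mtor (edgeR adjusted p = 0.45), -0.13 for Tsc2 (0.214), -0.18 for Pik3cd (0.28) and 0.22 for Rheb (0.134). The median of the 14 longest members moved from -0.14 to 0.06, and that of all tested genes in the longest class from -0.09 to 0.05. In the other length classes the medians of all tested genes with the offset were 0.06 to 0.07. Rictor, with the longest transcript at 16.9 kb, moved from -0.19 to 0.09, and Gsk3b from -0.10 to 0.08. With an offset for length and GC percent together, which was chosen after the data were seen, Foxo3 was at -0.34 (edgeR adjusted p = 0.0458) and again the 1 member called. The share of all tested genes called with that offset is not given here. With the length slope of each library as a covariate instead, also chosen after the data were seen, Foxo3 was at -0.12 (edgeR adjusted p = 0.572) and did not pass. In that fit 3 members passed, where 5.78% of all tested genes did, Mtor at -0.32 (edgeR adjusted p = 0.0245), Pik3cd at -0.38 (0.0476) and Rptor at -0.39 (0.0338). No member passed both with the offset and with the slope covariate.

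**Figure D5:**
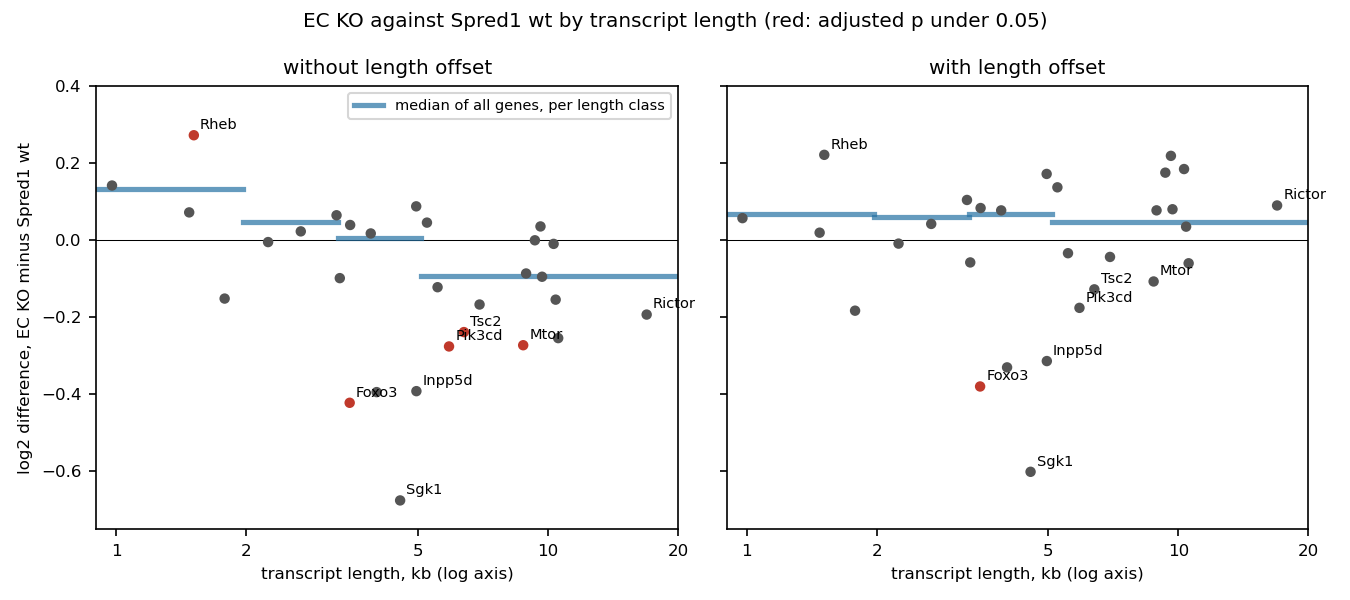
Log2 difference of each pathway gene in EC KO against its transcript length in kilobases on a log axis, without (left) and with (right) the length offset; blue bars are medians of all tested genes per length class, and red points have an edgeR adjusted p under 0.05. On the left the bars step down from 0.13 to -0.09, and on the right they are level and Foxo3 alone is red.

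Foxo3 made up 45.04% ± 2.86 of the summed Foxo1, Foxo3 and Foxo4 transcripts per length in EC KO (mean ± SD, n = 5), against 52.1% ± 3.42 in Spred1 wt, 55.2% ± 1.49 in HSC wt, 54.6% ± 2.19 in HSC KO and 54.3% ± 1.71 in global KO (n = 6). Foxo4 stood at 43.1% ± 1.63 in EC KO, where each library was above each Spred1 wt library, and at 36.7% ± 3.55 in Spred1 wt. In CPM Foxo4 itself differed by 0.04 (edgeR adjusted p = 0.788), and measured 44.7, 43.3, 43.2, 49.3 and 58.6 CPM in EC KO, the Spred1 wt libraries measuring 48.7, 47.9, 45.6, 45.05 and 45.4 CPM. Foxo1 differed by -0.12 (edgeR adjusted p = 0.639).

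Mtor, Tsc2 and Foxo3 passed in EC KO against either wild-type group. Against HSC wt, 6 members passed in EC KO (Mtor, Rptor, Rictor, Tsc2, Foxo3 and Gsk3b, all lower), where 11.3% of all tested genes did. With the length offset 1 passed, Foxo3 at -0.50 (edgeR adjusted p = 0.00917), where 4.01% did. Against global KO, a direct test of whether the EC KO and global KO effects differ that was added after the data were seen, 6 members were lower in EC KO, where 8.67% of all tested genes passed. These were Mtor at -0.31, Foxo3 at -0.56, Tsc2 at -0.22, Pik3cg at -0.18, Eif4ebp2 at -0.24 and Rptor at -0.25 (edgeR adjusted p from 0.00187 to 0.0479). With the length offset 2 passed, Foxo3 at -0.54 (edgeR adjusted p = 0.00311) and Eif4ebp2 at -0.30 (0.0141), where 4.68% did. All these comparisons share the EC KO libraries.

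The EC KO calls rested on the libraries used. When each of the 10 libraries was left out in turn, Mtor passed 10 times, Tsc2 9 times, Foxo3 6 times, and Pik3cd and Rheb 2 times each. Without EC KO 3, 1 member passed (Mtor), without EC KO 4 or Spred1 wt 3, 2 passed, and without Spred1 wt 2 or Spred1 wt 5, 3 passed. The share of all tested genes called in these fits is not given here, so the counts show nothing particular to the pathway. A fit of EC KO and Spred1 wt alone called 0 members, with Mtor at -0.30 (edgeR adjusted p = 0.0775) and Foxo3 at -0.45 (0.0982). In the main fit these differences were smaller, at -0.27 and -0.42. For this smaller fit, too, the share of all tested genes called is not given here.

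The EC KO libraries split by mast cell transcripts and by Xist in the same way. EC KO 1 and 2 had Xist and a mean log2 CPM of the mast cell and basophil markers, here called the mast level, of 8.15 and 8.12. EC KO 3, 4 and 5 had no Xist and mast levels of 5.50, 5.24 and 5.48, under all Spred1 wt libraries (7.35 to 9.51). The markers did not move as 1 block. The mast cell gene Cma1 was at 14.7, 5.84 and 8.61 CPM in EC KO 3, 4 and 5, against 642 and 856 in EC KO 1 and 2. The basophil gene Mcpt8 was at 726, 954 and 847 CPM against 272 and 189, higher where Cma1 was lower. The 7 macrophage markers summed to 218, 128 and 189 CPM in EC KO 3, 4 and 5 and to 67.7 and 40.1 in EC KO 1 and 2, and their part in the member differences was not tested. With Xist as a covariate 2 members passed in EC KO, Mtor and Tsc2, and Foxo3 was at -0.39 (edgeR adjusted p = 0.0757). The share of all tested genes called with this covariate is not given here. Among libraries without Xist alone, Sgk1 passed, at -1.19 (edgeR adjusted p = 0.0154), and with EC KO 1 and 2 alone it was at -0.16. With the mast level as a covariate Sgk1 was at -0.06 and Inpp5d at -0.10, whereas Mtor was at -0.24 (edgeR adjusted p = 0.0265) and Foxo3 at -0.53 (0.00945).

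Within groups, 8 of 29 members moved with the mast cell transcript level, a share close to that of all tested genes, 27.8%. Slopes are log2 differences per unit of the mean log2 CPM of the mast cell and basophil markers, basophil genes such as Mcpt8 included. Sgk1 rose most steeply, with a slope of 0.339 (SE 0.0437, edgeR adjusted p = 2.28e-06), followed by Irs2 at 0.222 (edgeR adjusted p = 0.00144), Inpp5d at 0.139 (0.000462), Pik3cb at 0.110 (0.00186), Rptor at 0.0910 (0.000613) and Pik3cd at 0.0692 (0.0253). Foxo1 and Foxo4 fell with it, at -0.113 (edgeR adjusted p = 0.0364) and -0.0625 (0.0269). For Mtor and Tsc2 the slopes were 0.0176 and 0.00302 and did not pass. Whether mast cells among the sorted cells contribute to the levels of Sgk1, Irs2 and Inpp5d was not tested.

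Some counts may include reads of neighbours, since the strand setting of counting is not given in the sources used here. Mtor spans Angptl7 on the opposite strand, Tsc2 overlaps Pkd1 by 699 bases on the opposite strand, and Rptor, Mlst8, Irs2, Gsk3a and Gsk3b each overlap a gene on the opposite strand too. Rows listed with copies at distant sites, such as Eno1b, whose listed span covers Mtor and Pik3cd, were not read as overlaps.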

How the data were processed

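RNA was sequenced from sorted LSK cells in 26 libraries, grouped by the labels' genotypes. What the authors deposited is 1 table of whole-number counts of reads for each gene, not normalized, with transcript length and gene coordinates, per the file headers. The build is mm10, and the tools named are edgeR 3.28.1, HTSeq 0.6.0, STAR 2.6.0 and bcl2fastq 2.18.0.12, per the submitters' processing notes; annotation and strand setting are not given in the sources used here. All 26 columns were mapped to samples by name, and 0 pairs were identical.

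The analysis used R 4.3.3, edgeR 4.0.16, limma 3.58.1 and DESeq2 1.42.0. After filterByExpr (minimum count 10), 13379 genes were fitted with edgeR's quasi-likelihood F-test (TMM, robust, 5 group means, 21 residual degrees of freedom), two-sided, with Benjamini-Hochberg adjustment over all tested genes and a threshold of 0.05. The length offset is a natural spline (4 degrees of freedom) of log2 deviations on log2 length per library. GC percent came from the GENCODE transcript of nearest length and covered 98.2% of tested genes. The fit was tested on simulated data. Depth ran from 14816071 to 26714325 counts, and the lowest count of a member in a library was 167.

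Values are given in full for members called, members whose groups do not overlap and the 3 of smallest p per comparison; of the other lists, genes called or the 2 of smallest p, of which 1 is not reported here. Foxo4, Inpp5d, Rptor, Pik3cg and others named beyond this rule were chosen after their values were seen. The members and lists were chosen with earlier results of these data known. Alternatives were other tests, normalizations, filters, controls, covariates and offsets, and each library left out in turn.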

Additional observations from a re-analysis of the deposited data

Results flagged for a closer look

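Within each group the highest and the lowest library of every member were checked for a gap to the others that is large for the group's range. Of 145 groups 11 had such a library, and chance gives about 1 in 20. Global KO 1 gave 6 of the 11. It was high in Akt1 (393 CPM, the other 5 at 284 to 320.2), Akt2 (154 CPM) and Tsc2 (111 CPM), and low in Pdpk1 (90.2 CPM, the others at 112 to 119), Rheb (55.1 CPM) and Rps6kb1 (75.7 CPM). Akt1, Akt2 and Tsc2 have transcripts of 54.7 to 59.7% GC, and Pdpk1, Rheb and Rps6kb1 of 39.2 to 47.1%, in the library with the steepest GC slope. The part of base composition in these values was not tested.

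The other 5 were single values. Rheb was high in Spred1 wt 4 (73.1 CPM, the others at 57.5 to 60.5), Pik3cd was low in Spred1 wt 1 (257 CPM), Pik3cb was low in HSC KO 1 (25.9 CPM), Rptor was high in HSC wt 4 (104 CPM) and Gsk3b was high in HSC wt 3 (132 CPM).

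The effects of EC KO and global KO, which share the Spred1 wt control, differed in 6 of 29 members by edgeR's test of EC KO against global KO. Of all tested genes 8.67% passed in this test. The log2 differences were -0.31 for Mtor, -0.56 for Foxo3, -0.22 for Tsc2, -0.18 for Pik3cg, -0.24 for Eif4ebp2 and -0.25 for Rptor. With the length offset Foxo3 and Eif4ebp2 passed, where 4.68% of all tested genes did.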

How the results depend on the processing

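In global KO, HSC KO, the wild-type comparison and the difference of effects, 0 members passed under every alternative run, leave-one-out included. In EC KO the count of 5 became 8 with DESeq2, 3 with no filter, 2 with the Xist covariate, 1 with the length offset and 0 with the compared groups only. Chosen after the data were seen, it became 3 with the length slope covariate, 1 with the length and GC offset, 1 with HSC wt as control with length offset, 2 with both wild-type groups averaged as the control and the length offset, and 0 with EC KO replicates 1 and 2 only. Leaving out 1 library at a time gave 1 to 7. It was 5 to 7 with voom, RLE or upper-quartile factors, 1 CPM in 5 libraries, the mast covariate, the stem and progenitor marker covariate (added after the data were seen), HSC wt or both wild-type groups as control, and libraries without Xist. No called difference changed sign. The share of all tested genes called moved too. It was 7.96% in the main fit, 5.67% with the length offset and 5.78% with the length slope covariate. With HSC wt as control it was 11.3%, and 4.01% with the length offset added. For the other settings this share is not given here, so their counts alone show nothing particular to the pathway. No paired analysis was possible because replicate numbers follow accession order. The cause of these changes was not tested. With 5 libraries a group and no EC wt group analysed here, calls depended on single libraries, with Pik3cd and Rheb lost in 8 of 10 such fits each, Foxo3 in 4 and Tsc2 in 1.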
